A study of Mus musculus with 9 samples.

Results

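The Mrgpra3 neurons described here are 67 STAMPs (single-cell transcriptomes attached to microparticles) of 6997 in a Dropseq survey of the mouse trigeminal ganglion. They make up 1.74% of the 3855 STAMPs that passed a gate for neurons. The gate asked for 500 to 7500 detected genes, for a unique transcript (UMI) of at least 3 of the 6 neuronal genes Tubb3, Scn9a, Snap25, Nefl, Nefm and Uchl1, and for no UMI of the epithelial gene Epcam. A gated STAMP was a member if it held at most 1 UMI of Nppb, the gene that marks the other itch neurons, and either a UMI of Mrgpra3 or a UMI each of Etv1 and 4930529M08Rik. The members were therefore chosen on measured transcripts, and the values of these genes in them are descriptions.

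All 9 samples were of 1 group, trigeminal neurons of wild type FVB/N mice aged 3 to 6 weeks by the labels, with no treatment and no control group. Each Dropseq run pooled mice of both sexes, and the dissociated cells went through a Percoll gradient and a depletion of glia and other cells before capture. The barcodes in the deposited table name no run, so the cells are 1 pooled sample, no test between groups of cells was possible, and differences between runs or mice cannot be told apart from differences between cells. Levels are a gene's UMIs summed over the cells of a group and scaled to 1000000 UMIs of that group (CPM), and have exact Poisson 95% intervals. Shares of cells have exact Clopper-Pearson 95% intervals, and log2 ratios of CPM have exact binomial 95% intervals. All these intervals, given in brackets, cover counting error only. Where a group held no UMI of a gene, a fold marked "at least" sets its count over the group at a floor of 3, which is below the upper end of its Poisson interval, so that interval allows a smaller fold.

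Mrgpra3 is a Mas-related G protein-coupled receptor of unmyelinated sensory neurons that supply the skin. It is the mouse receptor for the antimalarial drug chloroquine, which causes itch, and neurons that carry it are known as pruriceptors. Genes of signalling through Gq proteins and phospholipase C are described below, and whether this receptor signals through them was not tested. The other class of itch neuron makes the peptide natriuretic polypeptide B (Nppb), and a further class of unmyelinated skin neurons carries the related receptor Mrgprd. The genes of the rule are scattered over the genome. In GENCODE positions on GRCm38, Mrgpra3 lies within the cluster of Mas-related receptor genes on chr7:47588950-47601372 (minus strand), Etv1, an ETS transcription factor, lies on chr12:38779380-38870484 (plus strand), and 4930529M08Rik, now named Cfap61, lies on chr2:145934784-146215039 (plus strand).

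Mrgpra3 itself was found in few cells and at uneven depth. A UMI of it was present in 72 of all barcodes, 60 of which passed the gate, and 2 of these 60 were left out because they held 2 or more UMIs of Nppb. Of the 58 members with Mrgpra3, 17 held a single UMI, 41 held 2 or more and 12 held 10 or more, up to 43 in 1 cell. Relative to depth, the members with the gene ranged from 0.888 to 37.4 UMIs per 10000, with a median of 7.44. Over all members the level was 604 CPM (544-668), against 0.0985 CPM in the 3788 other gated neurons. The rule fixes this contrast, since the others could hold Mrgpra3 only in the 2 cells left out for Nppb. Only 1 of 167 glia-like cells (0.599%) and none of 490 red blood cell-like cells held a UMI, at median depths of 1414 and 1331 UMIs. The members were deeper, with a median of 5589 UMIs. The part of free RNA in the members that held a single UMI was not tested.

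Because the ends of related genes can share reads, the last 300 bases of the Mrgpra3 transcript were compared with the transcripts of the other Mas-related genes. The nearest were Mrgpra2a and Mrgpra2b with 75.7% identity, followed by Mrgprb1 with 55.3%.

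The 3 genes of the rule overlapped in the members. Etv1 was present in 41 of the 58 members with Mrgpra3 (70.7%), although the Mrgpra3 arm of the rule did not ask for it, and in 5.25% of the other neurons (4.57-6.01). The transcript 4930529M08Rik was rarer, in 14 of the 58, and each of these 14 also held Etv1. Of the 23 members with both Etv1 and 4930529M08Rik, 14 held Mrgpra3 and 9 did not. Etv1 was not particular to these cells, since 59.7% of the 62 Nppb neurons (46.5-72.0) and 8.38% of glia-like cells (4.66-13.7) held it. Its level was 353 CPM in the members, 256 CPM in the Nppb neurons and 9.10 CPM in the 366 Mrgprd neurons.

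Some cells stood close to the limits of the rule. Outside it lay 197 gated neurons with Etv1 and neither of the other rule genes, and 46 with 4930529M08Rik alone. One member held 1 UMI of Nppb, 3 members held exactly 3 of the 6 neuronal genes and 44 held all 6, and detected genes in the members ran from 704 to 7339. Outside, 14 barcodes held Mrgpra3 and were left out, 6 of them for a UMI of Epcam, 4 for Nppb, 3 for more genes than the limit, 3 for too few neuronal genes and 1 for too few genes, with some counted under more than 1 limit.

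The members were deeper than most cells, with a median of 5589 UMIs (range 1035 to 52579), against 2972.5 in the other gated neurons, 3525 in the Nppb neurons and 5147.5 in the Mrgprd neurons. For this reason shares of cells are also given after each cell was thinned at random to 1000 UMIs. The median mitochondrial share of UMIs was 0.894% in members and 1.17% in the other gated neurons, and 5 members exceeded 5%. Barcodes of 6 members ended in an undetermined base and 1 member's barcode shared its first 11 bases with another barcode. No cell was removed as a doublet.

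The remaining marker genes, Gfra1 and Mlc1, took no part in the choice of cells. They were listed with earlier results of these data known, so their levels are not an independent check of the labelled identity. Gfra1, a coreceptor for the neurotrophic factor GDNF, was found in 43 members with 0.394 to 24.4 UMIs per 10000, and the median over all members was 2.07. Its level was 252 CPM (214-295) in the members, 29.99 CPM in the other neurons, 23.5 CPM in the Nppb neurons and 53.6 CPM in the Mrgprd neurons. The level in the members was 8.42-fold that of the other neurons, and 64.2% of members (51.5-75.5) held it against 8.55% of the others (25.4% and 2.27% after thinning) and 3.59% of glia-like cells. Mlc1, a membrane protein best known from astrocytes, was found in 17 members with at most 3 UMIs each, at 46.9 CPM (31.4-67.4) against 2.41 CPM, a ratio of 19.4. No glia-like or red blood cell-like cell held a UMI of Mlc1. Both markers thus stood above the other neurons in the members as a group, and both were missing from many single members.

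As a further look at single cells, chosen after values had been seen, each member's counts were compared with summed profiles of 7 groups of gated neurons. The groups were picked on Mrgpra3 (2 or more UMIs), Nppb, Mrgprd, Trpm8, Cd34, S100b with Nefh, or Tac1 with Trpv1, all genes that chose members or groups were left out of the comparison, and no cell took part in its own group's profile. By likelihood, 52 of the 67 members were most like the Mrgpra3 profile. These were all 14 members with the 3 rule genes, 35 of the 44 with Mrgpra3 but not the pair, and 3 of the 9 with the pair alone. Of the 41 members with 2 or more UMIs of Mrgpra3, 39 were most like that profile, and of the 17 with 1 UMI, 10. For comparison, 332 of 337 neurons picked on Mrgprd alone and 54 of the 62 Nppb neurons were returned to their own group.

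Of the 15 members that were most like another profile, 3 were most like the Cd34 group, 3 the Mrgprd group, 3 the group with S100b and Nefh, 3 the group with Tac1 and Trpv1, 2 the Trpm8 group and 1 the Nppb group. The deepest member of all, with 52579 UMIs, held 106 UMIs of Nefh and 92 of S100b, genes of large myelinated neurons, 1 UMI each of Etv1 and 4930529M08Rik and none of Mrgpra3. The next, with 50737 UMIs, held 42 UMIs of Mrgprd and 25 of Lpar3, both markers of Mrgprd neurons, again with 1 UMI of each gene of the pair and no Mrgpra3. Another, with 27727 UMIs, was most like the group with Tac1 and Trpv1 but held 1 UMI of Tac1 and none of Trpv1, and held 98 UMIs of Neurod1 and 68 of the cell division gene Top2a, which mark none of the groups compared. One member matched to the Mrgprd group, with 2444 UMIs, held 4 UMIs of Mrgpra3, 2 of Etv1, 3 of Gfra1 and 1 of Mrgprd, and the Mrgpra3 profile was next for it. The data therefore went against the label for most of the 9 cells chosen by the pair alone.

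**Figure D1:**
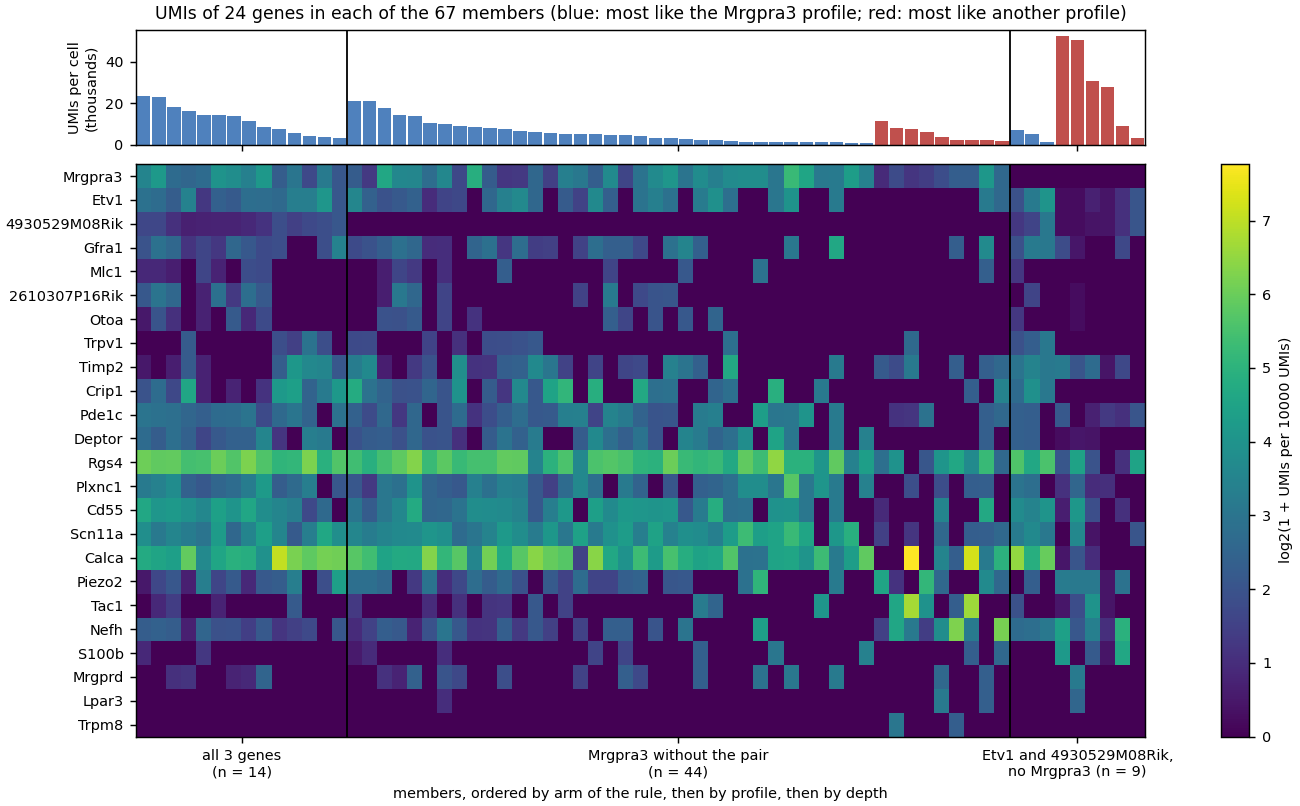
Each column is 1 of the 67 members, with its depth in units of 1000 UMIs above and log2(1 + UMIs per 10000 UMIs) of 24 genes below, and vertical lines separate the arms of the rule. Red bars mark the 15 members most like another profile, 6 of which are among the 9 cells without Mrgpra3 at the right, and Rgs4, Cd55 and Scn11a fill most columns of the other 52.

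Those few deep cells carried much weight in summed counts, since the 9 cells of the pair alone gave 187445 of the members' 617859 UMIs. Values are therefore also given for the 41 members with 2 or more UMIs of Mrgpra3, called the strict set below, a choice that used only a gene of the rule. It holds 357622 UMIs with a median of 7634 per cell.

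Members were first compared with the 3788 other gated neurons, to ask which genes set these cells apart within the ganglion. A gene was counted as higher if its CPM in members was at least 4-fold that in the others, given 30 or more UMIs in 15 or more members with no member holding over 25% of them, and 24 of 3981 such genes (0.603%) were counted. A gene was counted as lower if its level in the others was at least 200 CPM and the ratio 4-fold or more the other way, with the same limit on 1 member, and 5 of 960 genes (0.521%) were counted. At 2-fold the counts were 149 (3.74%) and 18 (1.88%). The counts over gene lists used no limit on 1 member for lower genes, and 36 of 1004 genes (3.59%) were 2-fold and 10 (0.996%) 4-fold lower in that way. The median log2 ratio of all genes considered was 0.04.

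Among genes within the limits of 30 UMIs in 15 members, the transcript with the largest ratio was 2610307P16Rik, a long non-coding RNA on chr13:28460034-28885620 (minus strand, GRCm38) whose span also holds several small genes. It was found in 19 members with 0.197 to 8.13 UMIs per 10000 and was at 139 CPM (111-172), against 6.30 CPM in the other neurons, 2.94 CPM in the Nppb neurons and 14.3 CPM in the Mrgprd neurons. The log2 ratio to the other neurons was 4.46 (4.05-4.87), and 5.22 in the strict set, which held 84 of the 86 UMIs. It was 3.85 with a mean over cells and 3.56 after thinning, below the 3.775 of Gfra1 after thinning. A UMI was present in 28.4% of members, and in 5.97% after thinning. Neither glia-like nor red blood cell-like cells held a UMI of 2610307P16Rik.

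Crip1, a small LIM domain protein, was at 487 CPM in the members and 68.9 CPM in the others, with a log2 ratio of 2.82 (2.64-3.00). It was found in 39 members with a highest value of 33.5 UMIs per 10000, while 18.6% of glia-like cells also held it. Krt27, a keratin of hair follicles, was at 112 CPM against 13.6 CPM and was present in 29 members. Moxd1, a monooxygenase also listed for Mrgprd neurons, was at 95.5 CPM against 17.1 CPM in 30 members, and the mTOR inhibitor Deptor was at 280 CPM against 69.7 CPM in 45 members. These 4 genes were higher still in the strict set, with log2 ratios of 3.36 for Crip1, 3.63 for Krt27, 2.81 for Moxd1 and 2.54 for Deptor.

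Among the Mas-related receptors, 17 of 21 listed genes were in the table and 7 of these had no UMI in any member. Mrgprb5 was the only one within the limits, since Mrgprd had 53.2% of its UMIs in 1 member, and it was higher, at 66.4 CPM (47.6-90.02) in members and 9.60 CPM in the others, from 15 members with up to 9 UMIs. Mrgpra4, which lies in the same cluster on chromosome 7, was sparse, with 12 UMIs in 11 members, all of them in the strict set, at 19.4 CPM (10.04-33.9) against 0.837 CPM in the others, 0.449% of which held it. Mrgpra1 was at 40.5 CPM against 12.3 CPM. Mrgprx1, the mouse receptor for the itch peptide BAM8-22, gave 3 UMIs in 3 members, a log2 ratio of 1.41 with an interval from -0.93 to 3.07, so no difference was detectable at this depth. Mrgprd was at 128 CPM against 114 CPM, but 42 of its 79 UMIs came from the 1 member described above, and in the strict set it was at 83.9 CPM.

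Of 37 itch receptor genes in the table, 13 had no UMI in a member. Osmr, a subunit of the receptors for oncostatin M and interleukin 31, was found in 26 members with at most 5 UMIs each, at 69.6 CPM (50.4-93.7) against 15.4 CPM in the others, a log2 ratio of 2.18 (1.68-2.64). Its partner Il31ra did not follow it, with 5 UMIs in 5 members, 8.09 CPM against 10.8 CPM and an interval from -2.05 to 0.83. Hrh1, the histamine receptor of itch, gave 7 UMIs in 6 members, 11.3 CPM (4.56-23.3) against 2.02 CPM, with only 3 of these UMIs in the strict set, where the interval reached below 0. Il6st, a shared subunit for cytokines of the interleukin 6 family, was at 283 CPM against 181 CPM. S1pr3, a receptor for the lipid sphingosine 1-phosphate, was lower at 43.7 CPM against 121 CPM, with 2 of its 27 UMIs in the strict set. Lpar1, a receptor for lysophosphatidic acid, gave 3 UMIs in the members and had a log2 ratio of -3.49 (-5.77 to -1.94). The serotonin receptor genes Htr1f and Htr2a had no UMI in any member.

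Many genes of the signalling chain behind Gq were higher in members than in the other neurons. Of 17 genes of this list with enough counts, 8 were 2-fold or more higher in members (3.74% of all genes). Of 10 considered for the other direction none was 2-fold lower (3.59%). The other 9 of the 26 listed genes were outside the limits on counts, 4 of them at 0 in members and the rest with lower CPM than the other neurons, such as Prkcb at 11.3 CPM against 76.4 CPM. Against Nppb neurons 3 of 17 were 2-fold higher (6.68% of all genes) and against Mrgprd neurons 2 of 17 were higher (3.32%) and 2 of 14 lower (3.77%). The list summed to 17090 CPM in members, 12580 CPM in the other neurons, 14160 CPM in Nppb neurons and 18890 CPM in Mrgprd neurons. Rgs4, which shortens Gq signals, was present in 65 members from 1.11 to 87.3 UMIs per 10000 (median 37.0) and stood at 3388 CPM (3244-3536) against 967 CPM, a log2 ratio of 1.81 (1.74-1.87). The calcium-dependent phosphodiesterase Pde1c was found in 53 members, with a median of 4.03 and a highest value of 19.6 UMIs per 10000, at 361 CPM (315-411) against 92.9 CPM, and 79.1% of members held it against 21.3% of the others (32.8% and 7.42% after thinning) and 2.40% of glia-like cells. The G protein Gna14 was at 201 CPM against 76.6 CPM, phospholipase Plcb3 at 272 CPM against 104 CPM, and the protein kinases Prkcd and Prkca at 617 and 456 CPM against 242 and 188 CPM. Pirt, a membrane protein that binds phosphoinositides and Trpv1, differed little, with a log2 ratio of 0.24 (0.13-0.35).

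**Figure D2:**
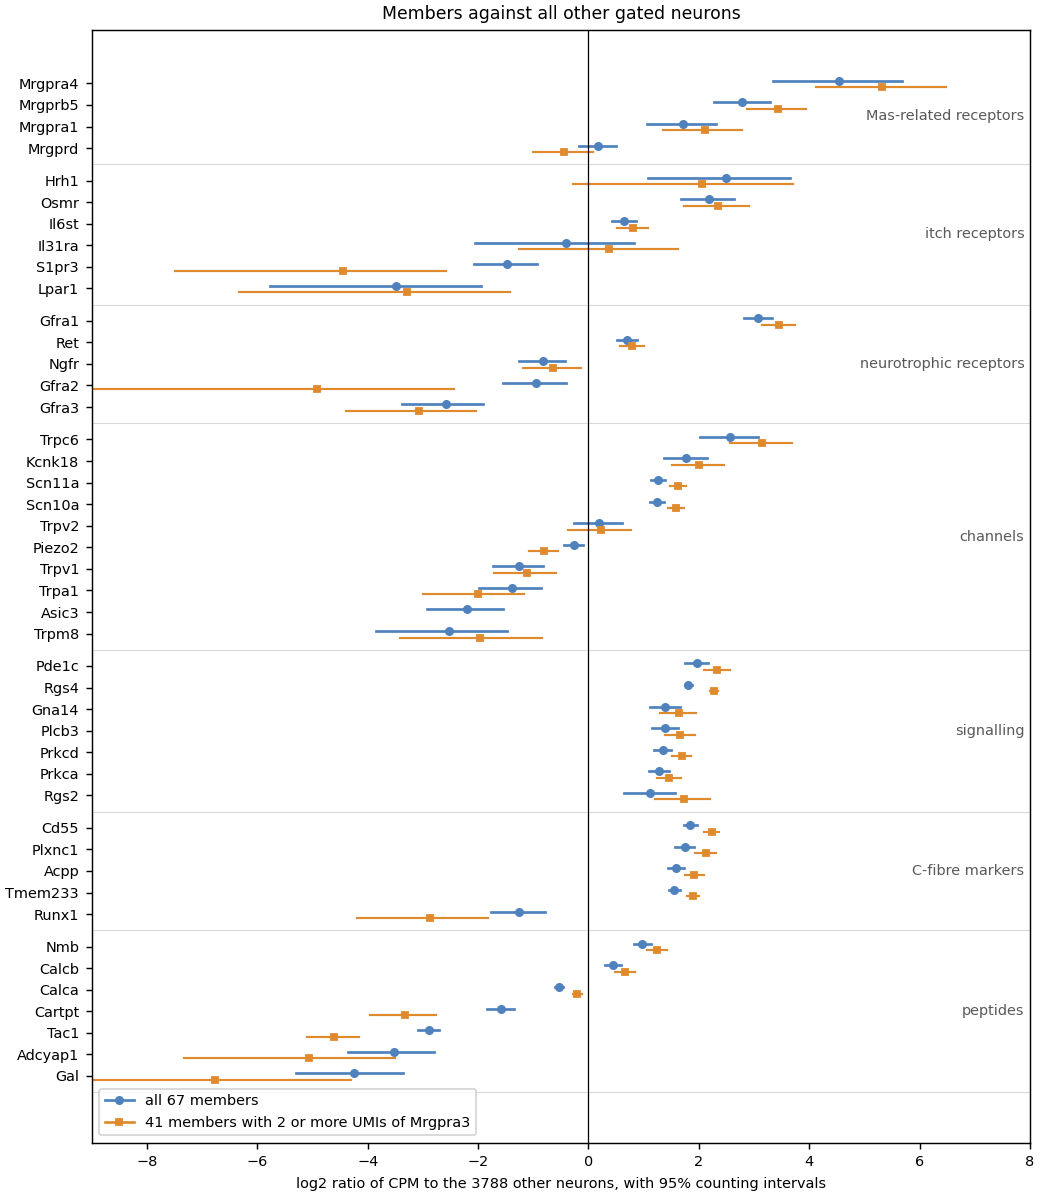
Log2 ratios of CPM to the 3788 other neurons, by gene and role, with 95% counting intervals (clipped at -9), for all 67 members (circles) and for the 41 members with 2 or more UMIs of Mrgpra3 (squares). Among the genes shown, Mrgpra4, Mrgprb5, Mrgpra1, Gfra1, Trpc6, the signalling genes and the C-fibre genes other than Runx1 lie to the right. Peptides such as Tac1 and Gal lie to the left, and Asic3 has no square because no cell of the strict set held a UMI.

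The sodium channels of unmyelinated nociceptors were high. Scn10a (Nav1.8) was at 889 CPM (816-966) against 377 CPM and Scn11a (Nav1.9) at 851 CPM (780-927) against 356 CPM, and each was found in 59 members. Per cell, Scn11a had a median of 10.2 and a highest value of 38.7 UMIs per 10000. Of 6 sodium channel genes considered these 2 were 2-fold higher (3.74% of all genes), and none of 3 was lower (3.59%). Of 12 markers of C fibres with enough counts, 10 were 2-fold or more higher (3.74% of all genes). The other 4 of the 16 listed genes, P2rx3, Lpar3, Runx1 and Gfra2, were outside the limits, with lower CPM in members than in the other neurons. Cd55, a complement regulator, was at 978 CPM against 272 CPM, the semaphorin receptor Plxnc1 at 502 CPM against 150 CPM, the ectonucleotidase Acpp at 701 CPM against 232 CPM and Tmem233 at 1559 CPM against 530 CPM. These 4 genes were found in 53 to 60 members each. The log2 ratios grew when possible doublets were removed, a setting that takes all neurons with 2 or more UMIs of Mrgprd out of both groups, from 1.85 to 3.03 for Cd55, 1.75 to 2.67 for Plxnc1 and 1.26 to 2.24 for Scn11a.

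Runx1, a transcription factor needed to form the Mas-related receptor neurons during development, went the other way. It was at 59.9 CPM (42.2-82.5) against 143 CPM, with 20 of its 37 UMIs in 1 member, and in the strict set at 19.6 CPM, from 7 UMIs in 6 cells. The log2 ratio was -1.26 in all members and -2.87 (-4.19 to -1.83) in the strict set. None of 9 transcription factor genes with enough counts was 2-fold higher (3.74% of all genes) and none of 4 was 2-fold lower (3.59%). Isl1, present in most sensory neurons, had a log2 ratio of -0.91, and Klf7 one of 0.64.

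The transduction channels fell into several patterns. Trpc6, a cation channel opened by diacylglycerol, was found in 24 members with at most 3 UMIs each, at 59.9 CPM (42.2-82.5) against 10.1 CPM. Kcnk18 (TRESK), a background potassium channel, was at 100.3 CPM against 29.4 CPM, but its ratio changed sign after thinning, when 2.99% of members and 3.17% of the others held a UMI. Piezo2, the channel of touch, was present in 71.6% of members (59.3-82.0), 47.6% of the others and 4.79% of glia-like cells (28.4% and 30.6% of members and others after thinning), and its level of 494 CPM against 594 CPM was slightly lower, with 341 CPM in the strict set.

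The capsaicin receptor Trpv1 was found in 18 of the 67 members, each of which held 1 to 6 UMIs, at 71.2 CPM (51.7-95.6) against 171 CPM in the other neurons. As background, 0.599% of glia-like cells held a UMI of Trpv1 at a median depth of 1414 UMIs, and 0.408% of red blood cell-like cells at 1331 UMIs. The irritant channel Trpa1 was in 13 members at 46.9 CPM against 123 CPM, and the acid-sensing channel Asic3 was at 30.8 CPM against 141 CPM, with no UMI in the strict set, at least 16.9-fold lower there. After thinning, 11.9% of members and 15.5% of the others held Trpv1. Its log2 ratio of -1.26 (-1.72 to -0.83) became 0.21 when possible doublets, among them neurons with Tac1 and Trpv1, were removed. The cold channel Trpm8 gave 7 UMIs in 2 members, 6 of them in 1 cell that was most like the Trpm8 profile.

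Several peptides of nociceptors were far lower in the members, while CGRP was widely detected. Calca (CGRP alpha) was present in 61 members from 0.380 to 217 UMIs per 10000 (median 25.1 over all members), yet its summed level of 2844 CPM (2712-2980) was below the 4114 CPM of the others, with a log2 ratio of -0.53 in all members and -0.20 (-0.28 to -0.12) in the strict set. It was detected in 91.0% of members, 60.4% of the others, 12.6% of glia-like cells and 11.2% of red blood cell-like cells (82.1% and 47.3% of members and others after thinning). Tac1 (substance P) was found in 24 members only and was at 356 CPM (311-406) against 2650 CPM, and in the strict set at 109 CPM, a log2 ratio of -4.60 (-5.09 to -4.15). A single member, most like the group with Tac1 and Trpv1, gave 80 of the 220 UMIs.

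Galanin (Gal) was at 16.2 CPM against 306 CPM and the peptide PACAP (Adcyap1) at 24.3 CPM against 280 CPM, from 4 and 5 members. No member held a UMI of somatostatin (Sst), Vip or Npy, nor of the receptor tyrosine kinase Kit, which was at 50.6 CPM in the others, at least 10.4-fold higher. Of the peptides and transmitters listed, 4 of 8 considered were 2-fold or more lower (3.59% of all genes) and none of 4 was 2-fold higher (3.74%). Neuromedin B (Nmb) was the peptide with the highest ratio among those described, at 586 CPM (527-649) in 49 members against 298 CPM, just under 2-fold.

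Of the neurotrophic receptors, only Gfra1 of the 5 considered was 2-fold or more higher (3.74% of all genes). Ret, the signalling partner of the GFRA proteins, was at 463 CPM against 285 CPM, with a log2 ratio of 0.70 (0.52-0.87). The coreceptors for neurturin and artemin were low, Gfra2 with 1 UMI in the strict set and Gfra3 with 7, the latter at 27.5 CPM in all members against 165 CPM.

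Markers of glia, red blood cells and pituitary cells were lower in the members than in the other neurons. Summed over the list, glia genes were at 986 CPM in members, 2605 CPM in other neurons, 612 CPM in Nppb neurons, 1005 CPM in Mrgprd neurons and 107200 CPM in glia-like cells, and none of the 10 genes of the list was at 0 in members. Globin and other erythroid genes summed to 3101 CPM against 6162 CPM and pituitary genes, mostly growth hormone (Gh), to 283 CPM against 1085 CPM. The lower values were shared with the Nppb neurons (3376 and 268 CPM) and the Mrgprd neurons (3266 and 328 CPM). Their part in the results was not tested. Of 7 immune genes 6 were at 0 in members, and the list summed to 1.62 CPM. Endothelial genes went the other way, at 66.4 CPM in members, 39.6 CPM in other neurons, 35.3 CPM in Nppb neurons and 16.9 CPM in Mrgprd neurons, and 38 of the members' UMIs of this list were of 1 gene, Itm2a, in 19 members, while Cldn5 and Pecam1 were at 0. Itm2a was at 61.5 CPM in members and 25.2 CPM in the other neurons, and 23.4% of glia-like cells held it.

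The members were next set beside the 62 Nppb neurons, the other class known for itch, to ask what the classes share. By the same limits 62 of 3981 genes (1.56%) were 4-fold or more higher in members and 8 of 996 (0.803%) lower, or 11 of 1023 (1.08%) without the limit on 1 member. At 2-fold the counts were 266 (6.68%) higher and 40 (4.02%) lower, or 48 (4.69%) without that limit. All 6 marker genes of Nppb neurons with enough counts were 4-fold or more lower in members. Nppb neurons were picked on Nppb, so these markers describe that choice as much as the members.

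Somatostatin differed widely, at 0 UMIs in members and 1047 CPM in Nppb neurons, at least 216-fold apart. Il31ra was at 8.09 CPM against 553 CPM, the leukotriene receptor Cysltr2 at 6.47 CPM against 138 CPM, and the neuropeptide Y receptor Npy2r gave 1 UMI against 77, a log2 ratio of -7.13 (-12.4 to -4.61). Htr1f had no UMI in members and was at 171 CPM in Nppb neurons. Jak1, the kinase through which these cytokine receptors signal, was at 568 CPM in the members and 2956 CPM in the Nppb neurons, a log2 ratio of -2.38 (-2.56 to -2.20). Osmr was intermediate, at 69.6 CPM in members, 479 CPM in Nppb neurons and 2.93 CPM in Mrgprd neurons, and these 3 intervals did not overlap. The granin Scg2 was at 129 CPM against 2491 CPM.

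In the other direction, the carbonic anhydrase-related gene Car10 was at 118 CPM (92.6-149) against 1 UMI, a log2 ratio of 5.33 (2.81-10.7), and Calca at 2844 CPM against 1082 CPM. The caveolin genes Cav1 and Cav2, which lie close together on chromosome 6, were at 77.7 and 59.9 CPM in members against 5.88 and 2.94 CPM, that is, 2 UMIs and 1 UMI in the Nppb neurons, with log2 ratios of 3.72 (1.79-6.81) and 4.35 (1.78-9.69). Cd55 had a log2 ratio of 1.85 (1.54-2.19).

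Several genes that were high against other neurons were at like levels in both itch classes. Lgi1 was at 176 CPM in members, 235 CPM in Nppb neurons and 31.6 CPM in the other neurons, and the interval of the log2 ratio between the itch classes was -0.85 to 0.02. The receptor Ephb6 was at 68.0, 91.2 and 11.7 CPM, the tetraspanin Tspan8 at 406, 509 and 98.9 CPM, and the kinetochore gene Kntc1 at 51.8, 61.8 and 6.89 CPM in the same order. The log2 ratio to Nppb neurons was -0.30 (-0.54 to -0.07) for Prkcd and -0.17 (-0.44 to 0.12) for Prkca. Lgi1, Ephb6, Tspan8 and Kntc1 were named because of their ratio to the other neurons, which include the Nppb neurons.

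**Figure D3:**
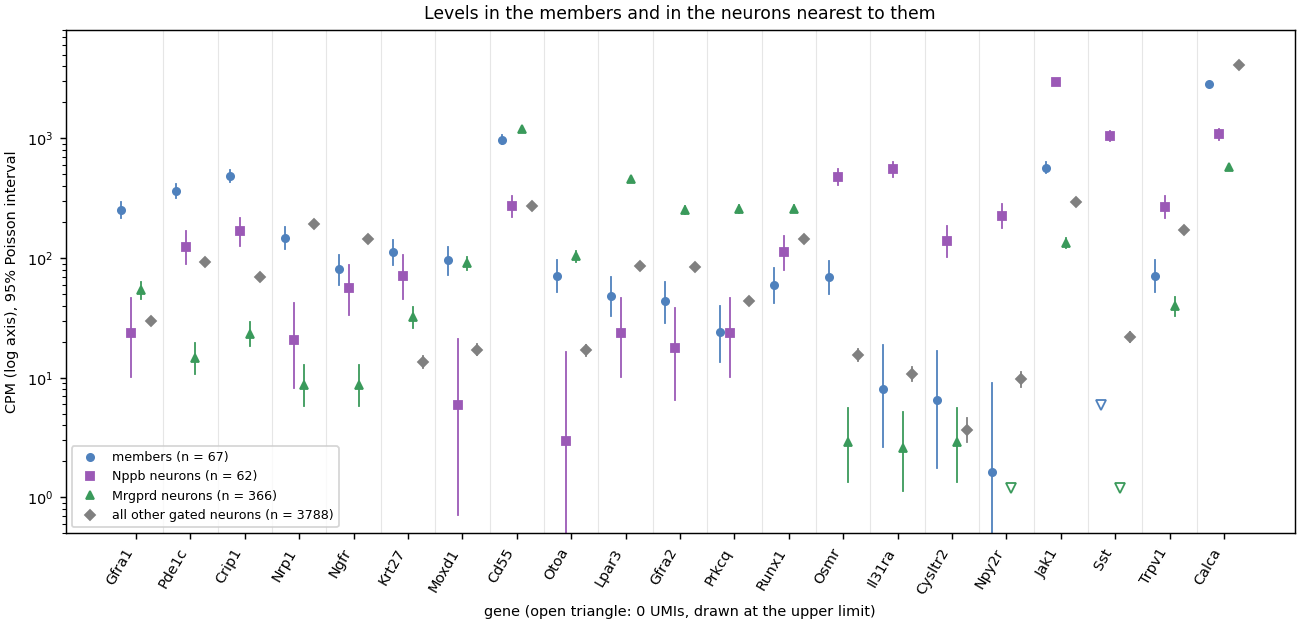
CPM on a log axis with 95% Poisson intervals of 21 genes in the 67 members, 62 Nppb neurons, 366 Mrgprd neurons and 3788 other gated neurons, open triangles marking 0 UMIs at the upper limit. Gfra1, Pde1c and Crip1 are highest in the members, Osmr to Sst in the Nppb neurons, and Lpar3, Gfra2, Prkcq and Runx1 in the Mrgprd neurons.

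Against the 366 Mrgprd neurons, the class with a receptor of the same family, 38 of 3981 genes (0.955%) were 4-fold or more higher in members and 1 of 1030 (0.0971%) lower, or 10 of 1061 (0.943%) without the limit on 1 member. At 2-fold the counts were 132 (3.32%) higher and 22 (2.14%) lower, or 40 (3.77%) without that limit. The 1 gene lower by 4-fold was the cadherin Cdh1, at 64.7 CPM in members against 324 CPM. Of the markers of Mrgprd neurons, 4 of 6 considered were 4-fold or more lower in members, beside which stands that Mrgprd neurons were picked on Mrgprd. In the strict set the lysophosphatidic acid receptor Lpar3 gave 2 UMIs, against 459 CPM in Mrgprd neurons, a log2 ratio of -6.36 (-9.41 to -4.50). Gfra2 gave 1 UMI against 252 CPM, with an interval from -11.8 to -4.01, and the kinase Prkcq 2 UMIs against 257 CPM, with an interval from -8.57 to -3.66. The potassium channel subunit Kcnab1 had no UMI in the strict set, at least 24.02-fold lower than its 201 CPM in Mrgprd neurons.

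Other genes of Mrgprd neurons were found in members at like levels. Moxd1 was at 95.5 and 90.3 CPM, Mrgprb5 at 66.4 and 55.9 CPM, Otoa at 71.2 and 103 CPM and Trpc6 at 59.9 and 53.0 CPM in members and Mrgprd neurons. The interval of the log2 ratio spanned 0 for Mrgprb5 (-0.28 to 0.75), Moxd1 and Trpc6 and lay below 0 for Otoa (-1.03 to -0.08). Some C-fibre genes were near one another, with Plxnc1 at 502 and 553 CPM, Acpp at 701 and 743 CPM and Cd55 at 978 and 1195 CPM, the last with a log2 ratio of -0.29 (-0.42 to -0.16), and none of 12 genes of that list was 2-fold higher in members. Of 14 considered for the other direction 3 were 4-fold or more lower in members, Lpar3, Gfra2 and Runx1, the last at 59.9 CPM against 259 CPM, and the list summed to 9758 CPM in members and 13590 CPM in Mrgprd neurons.

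Among the genes with the highest ratios to Mrgprd neurons, Resp18 and Ptprn encode proteins of dense-core vesicles, although the granin Chgb was at 93.9 and 80.9 CPM with an interval of the log2 ratio that spanned 0. Resp18 was at 191 CPM (158-229) against 4.88 CPM, Ptprn at 217 CPM against 10.7 CPM, and Calca at 2844 CPM against 574 CPM. Pde1c was at 361 CPM against 14.6 CPM, a ratio of 24.7, Osmr at 69.6 CPM against 2.93 CPM, and the neuropilin Nrp1 at 147 CPM against 8.77 CPM. The low-affinity neurotrophin receptor Ngfr was at 80.9 CPM against 8.77 CPM, from 25 members. Resp18 and Ptprn were at 735 and 359 CPM in the Nppb neurons, so members lay between the 2 classes for both genes.

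Members differed among themselves along Trpv1. This split, its genes and the limit to profile-matched cells were chosen after values had been seen. Of the 58 members with Mrgpra3, 15 held Trpv1 and 17 held 2610307P16Rik, and none held both, while 26 held neither. Among the 32 of these with 5000 or more UMIs, 12 held Trpv1, 13 held 2610307P16Rik and 7 neither. The 49 of the 58 that were most like the Mrgpra3 profile divided into 14, 17 and 18, with median depths of 7544, 13928 and 1854.5 UMIs, so the cells with neither were mostly shallow. Over all 67 members 1 cell, chosen by the pair alone, held both.

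The genes that went with Trpv1 in these 49 cells were found in most cells with it. Timp2, an inhibitor of metalloproteinases, was present in 14 of 14 cells with Trpv1, from 1.27 to 24.6 UMIs per 10000 (median 9.59), and in 16 of the 35 without it, at 801 CPM against 90.1 CPM, a log2 ratio of 3.15 (2.49-3.87). Tagln2, an actin-binding protein, was in 14 of 14 and 17 of 35 cells at 1625 CPM against 255 CPM. The guanine deaminase Gda was in 11 of 14 and 10 of 35 at 342 CPM against 50.9 CPM, and Nrp1 in 11 of 14 and 9 of 35 at 319 CPM against 50.9 CPM. Crip1 was at 1322 CPM against 454 CPM, and Calca at 6057 CPM against 2561 CPM, with 25.5 to 132 UMIs per 10000 in cells with Trpv1 (median 57.5) and 1.90 to 44.7 (median 24.4) in cells with 2610307P16Rik.

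Other genes were found on the side without Trpv1. Otoa gave 42 UMIs in 17 of the 35 cells and none in the 14 with Trpv1, at least 7.05-fold lower there, and Krt25 gave 25 UMIs in 12 cells and none. Timp3 gave 25 UMIs in 13 cells, and Cdh1 14 UMIs in 10 cells, with none among cells with Trpv1. Mrgprb5 gave 36 UMIs in 11 cells against 1 UMI, a ratio of 18.1 with an interval of the log2 ratio (with over without) from -9.52 to -1.61. Mlc1 was in 14 of 35 cells and 1 of 14. Mrgpra3, a gene of the rule, was itself at 373 CPM with Trpv1 and 1222 CPM without, with medians per 10000 UMIs of 3.87 with Trpv1, 11.2 with 2610307P16Rik and 9.29 with neither.

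Other genes of the class differed along Trpv1 by varying amounts. Scn11a was at 1065 and 1206 CPM with and without Trpv1, Piezo2 at 420 and 317 CPM and Osmr at 109 and 90.1 CPM, and the intervals of their log2 ratios spanned 0. Gfra1 was found in 71.4% of the cells on both sides, at 218 and 392 CPM. Its log2 ratio of -0.85 (-1.51 to -0.23) excluded 0, as did those of Cd55 (-0.91, -1.24 to -0.59), Plxnc1 (-0.88, -1.33 to -0.44) and Rgs4 (-0.44, -0.59 to -0.29). Etv1 was at 723 and 419 CPM, a log2 ratio of 0.79 (0.37-1.201). The median mitochondrial share was 0.884% with Trpv1 and 0.871% without, but it reached at most 1.36% with Trpv1 and 29.6% without, where 4 cells exceeded 5%. The mitochondrial RNA mt-Rnr2 was at 1174 CPM with Trpv1 and 5315 CPM without, with 1032 of the 1357 UMIs without Trpv1 in 1 cell, and mt-Rnr1 at 77.8 and 713 CPM, with 160 of 182 UMIs in 1 cell. The part of these cells in the other differences along Trpv1 was not tested.

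**Figure D4:**
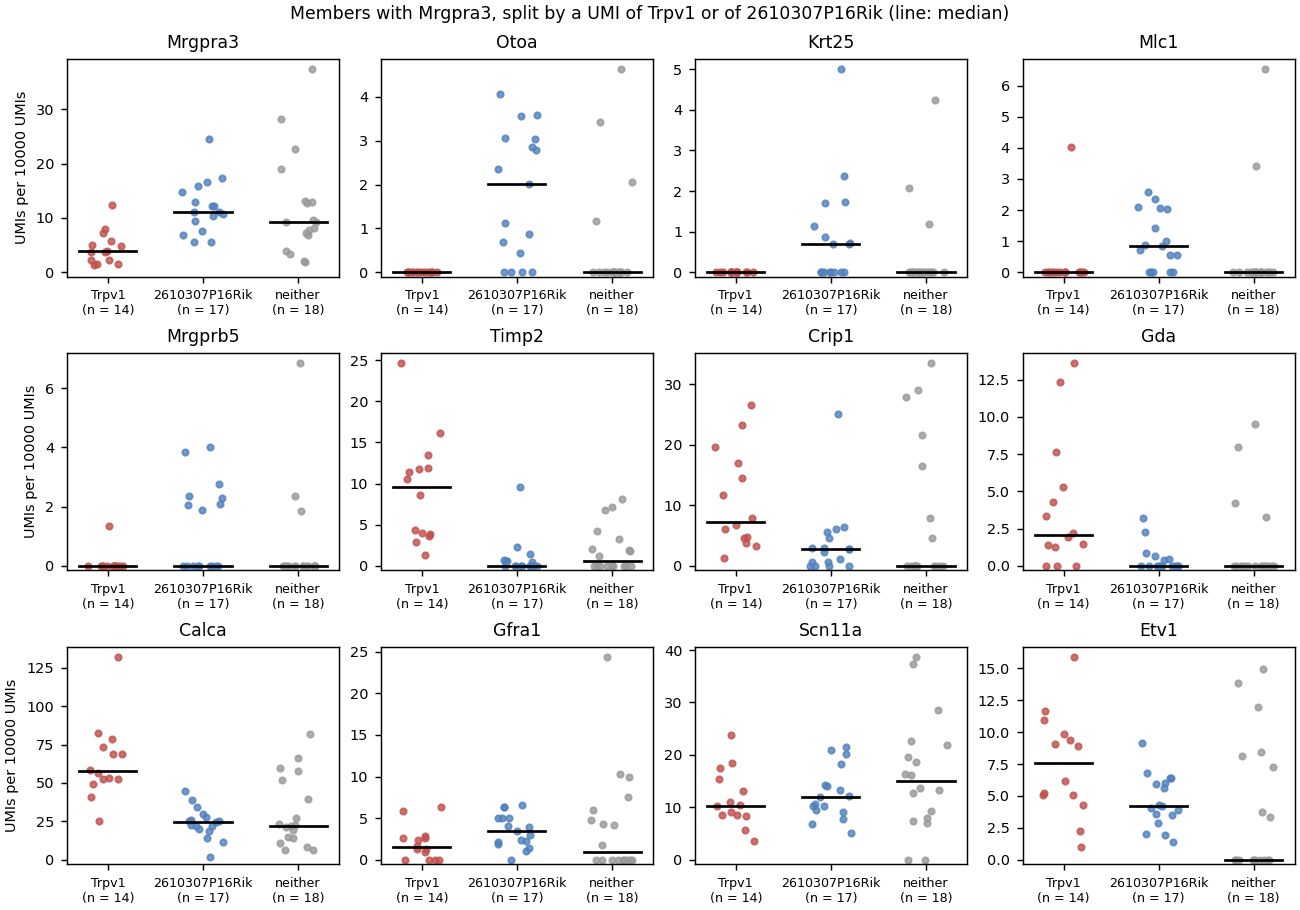
UMIs per 10000 UMIs of 12 genes in single members with Mrgpra3 that were most like its profile, divided into 14 with a UMI of Trpv1, 17 with a UMI of 2610307P16Rik and 18 with neither, and lines are medians. Otoa and Krt25 are at 0 in every cell with Trpv1, Timp2 is above 0 in each of them, and the ranges of Scn11a overlap in all 3 sets.

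Barcodes that the rule left out were divided in the same way. Of the 14 with Mrgpra3 that were not members, 7 held 2 or more UMIs of it and 5000 or more UMIs in all (8815 to 74340). Of these, 5 held Trpv1 and 3 held 2610307P16Rik, 1 of them both, with 70839 UMIs and more genes than the limit. The deepest, with 74340 UMIs, held 100 UMIs of Mrgpra3, 34 of 2610307P16Rik, 10 of Otoa, 10 of Mlc1 and none of Trpv1 or Timp2. Another, with 59889 UMIs, held 54 UMIs of Mrgpra3, 12 of Trpv1, 29 of Timp2, 139 of Crip1 and none of 2610307P16Rik, Otoa or Mlc1. The barcode with both held 7 UMIs of Trpv1, 4 of 2610307P16Rik, 17 of Timp2 and 26 of Mrgprb5.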

How the data were processed

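The table used here holds UMI counts per gene and barcode as the authors deposited them, with no normalization, made per the labels with bcl2fastq 2.17, STAR 2.5.3a, Seurat 1.4.0.16 and the mm10 genome. It holds 30491529 counts of 21536 genes in 6997 barcodes, none under 1000 UMIs. Counts were summed over the cells of each group and divided by the group's total (CPM), since the barcodes name no run and cells are not replicates. Nppb neurons were gated barcodes with 2 or more UMIs of Nppb, and Mrgprd neurons gated non-members with 2 or more UMIs of Mrgprd and at most 1 of Nppb. Glia-like and red blood cell-like cells held at most 1 of the 6 neuronal genes, with 3 of 6 glia genes or 2 of 5 red blood cell genes. Genes were named from lists of receptors, channels, peptides, signalling genes and markers, and as those with the 30 highest and 15 lowest ratios to other neurons and the 12 highest and lowest to each other class. The 8 highest and lowest ratios of members with Mrgpra3 to the cells of the pair alone were also used. Members and lists were chosen with earlier results of these data known. In the profile comparison each group's sum was joined by 20000 UMIs of the mean neuron, over genes with 50 or more UMIs. Scripts ran in Python 3.11.15 with NumPy 2.4.6, SciPy 1.17.1 and edlib 1.3.9.post1, and the intervals were tested on simulated data. Alternatives varied the rule, the gate, depth, possible doublets, filters and fold. Positions are those of GENCODE M21. The authors' clustering was not used here. Results on some genes are not reported here.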

Additional observations from a re-analysis of the deposited data

How the results depend on the processing

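The counts of genes 4-fold or more higher (24) and lower (5) in members depended on the settings. Counts of higher genes were 38 with a mean over cells, with possible doublets removed, and in the 52 profile-matched members (a choice made after seeing the data), 11 at 60 or more UMIs, 6 in the 23 members with Etv1 and 4930529M08Rik, 3 after thinning every cell to 1000 UMIs, 795 with no filter, 149 at 2-fold and 3 at 8-fold. Counts of lower genes were 2 with a mean over cells, 11 and 9 in the members with at least 2 and at least 1 UMI of Mrgpra3, 1 in those with Etv1 and 4930529M08Rik, 3 with 5 or more neuronal genes, 8 in cells of 1000 to 20000 UMIs, 21 in the profile-matched members, 10 with no filter or, chosen after seeing the data, with no limit on 1 member, 18 at 2-fold and 2 at 8-fold. The share of members with Mrgpra3 that held Etv1 was 82.9% at 2 or more UMIs of Mrgpra3 and, by construction, 100% under the Etv1 and 4930529M08Rik arm. Of the log2 ratios, 2 changed sign, Trpv1 to 0.21 with possible doublets removed, a setting that removes neurons holding Tac1 with Trpv1, and Kcnk18 to -0.20 after thinning, whose cause was not tested. Removing possible doublets also moved log2 ratios by over 1.5 times as folds without a change of sign, among them Otoa from 2.07 to 5.04, Trpc6 from 2.57 to 4.21, Cav1 from 2.66 to 4.03, Mrgprb5 from 2.79 to 3.97, Rgs4 from 1.81 to 2.70, Scn10a from 1.24 to 1.87, 2610307P16Rik from 4.46 to 5.30, Tac1 from -2.90 to -3.74, Gal from -4.24 to -6.15 and Adcyap1 from -3.53 to -5.88. Over 27 genes and 11 settings, 138 of 297 log2 ratios stayed inside the counting interval of the reported value and 157 left it with the same sign or an interval that spanned 0. Of 77 shares of members, 65 stayed inside. Leaving out a run was not done, since barcodes name no run. No paired analysis was possible because all samples are of 1 group. Depth limits what rare receptors can show, since at the members' median depth a transcript at 100 CPM gives under 1 UMI per cell.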

Other observations

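Among gated neurons outside the rule, 30 of 3788 were most like the Mrgpra3 profile. The rule itself leaves almost no neuron with Mrgpra3 among these 3788. Their median depth was 2130.5 UMIs. Etv1, which was left out of the comparison, was found in 15 of them (50%, 31.3-68.7), against 4.90% of the remaining 3758 neurons, whose median depth was 2991.5. Crip1 was in 16 of the 30 and Gfra1 in 13, genes that took part in the comparison, and Trpv1, which did not, was in 11 (36.7%, against 32.0% of the rest). Mlc1 was found in none of them and 2610307P16Rik in 3. Tac1 was in 19 of the 30 at 1282 CPM. Of the 14 barcodes with Mrgpra3 that were left out by the rule, 8 were most like the Mrgpra3 profile.

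Keratin genes of hair follicles gave transcripts in these neurons. Krt25 and Krt27 lie in the same keratin cluster on chromosome 11. Krt27 was at 112 CPM in members, 70.6 CPM in Nppb neurons and 32.2 CPM in Mrgprd neurons, and Krt25 at 46.9, 14.7 and 2.60 CPM in the same order. In glia-like cells Krt27 was found in 0.599% of cells and Krt25 in none. The growth hormone receptor Ghr was at 76.1 CPM in 26 members against 21.4 CPM in the other neurons, 29.4 CPM in Nppb neurons and 47.8 CPM in Mrgprd neurons.

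In a list of 18 immediate early and injury genes, none of 6 with enough counts was 2-fold higher in members than in the other neurons (3.74% of all genes). Of 5 considered, 1 was 2-fold lower (3.59%). Against Nppb neurons none of 6 was higher (6.68% of all genes) and 3 of 6 were lower (4.69%). Against Mrgprd neurons 2 of 6 were higher (3.32%) and none of 3 was lower (3.77%). Gap43 was at 1316 CPM in members (1227-1409), 782 CPM in Nppb neurons and 335 CPM in Mrgprd neurons, with the other neurons at 1111 CPM. Atf3, induced when sensory neurons are cut or dissociated, was at 74.5 CPM in members (54.5-99.3), 253 CPM in Nppb neurons, 198 CPM in Mrgprd neurons and 191 CPM in the other neurons. Mustn1 and Dyrk4 were sparse, with 21 of 21 and 22 of 23 UMIs of the members in the strict set. They were at 34.0 and 37.2 CPM in all members against 1.38 and 1.77 CPM in the other neurons. Both were named for their ratio of members with Mrgpra3 to the cells of the pair alone, which held no UMI of them. Their place in members with Mrgpra3 thus follows in part from that choice. Both were below the limit of 30 UMIs.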
